A study of Mus musculus with 24 samples.

Results

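Adipocytes grown from inguinal white fat of mice that lack Senp2 in adiponectin-expressing cells were compared with adipocytes grown from inguinal fat of their floxed controls, both with the siRNA labelled siNS. The comparison holds 6 of the 24 libraries of the series, 3 in each group. The aKO group (Senp2flox/flox ; Adipoq Cre) carried floxed Senp2 alleles and an Adipoq Cre transgene, which drives recombination from the promoter of the adiponectin gene, and the Cont group (Senp2flox/flox) carried the floxed alleles without Cre. No group of the series carried Cre without the floxed alleles, so Cre itself and the loss of Senp2 cannot be told apart. Cells of the stromal vascular fraction, the mixture of progenitors, fibroblasts, leukocytes and vascular cells left when fat cells are floated off, were grown to confluence in medium with 10% serum. They were induced for 2 days with dexamethasone, 0.5 mmol/l isobutylmethylxanthine and 0.1 mg/ml insulin, and were kept for 5 further days with 1 µg/ml insulin. Polyadenylated RNA was sequenced and counted per gene. The other 18 libraries, used below where stated, came from the same genotypes in epididymal cultures (eWAT) and from cultures of both depots treated with an siRNA against C/EBPβ (siCEBPb). The labels give neither the age of the mice, nor the target of siNS, nor whether the 3 libraries of a group came from separate mice or cultures, so the p-values measure the spread between these libraries, which may be technical.

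SENP2 is a protease that matures SUMO proteins and cuts them from their targets, which include transcription factors of fat cell differentiation. In white fat cultures, progenitors leave the cell cycle after a few divisions, C/EBPβ and C/EBPδ act early, and PPARγ and C/EBPα then switch on the genes of lipid storage and of adipokines. Because Adipoq is itself switched on late, Adipoq Cre recombines in cells that have begun to differentiate; recombination was not measured in any cell type here. The series asks whether SENP2 limits browning, the gain of heat-producing features by white fat cells, through C/EBPβ.

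The library of aKO replicate 2 was very shallow. It held 603585 gene counts, against 11782854 and 13360493 in aKO replicates 1 and 3 and 8435494 to 12094221 in the Cont libraries. Of its reads 93.35% were not aligned, and 32.37% of those that were placed in or outside a gene fell outside, and the median tested gene had 9 counts. A single count there was worth 1.98 CPM. CPM are counts per 1000000 gene counts of the library, with the total scaled by its TMM normalization factor, 0.8397 for the shallow library. Values under 5.93 CPM in it therefore rest on fewer than 3 counts, and a listed 0 allows a level of up to 5.93 CPM. For genes with Cont levels under that limit, a value of the shallow library below the Cont libraries is within its counting error. A value above them that rests on fewer than 3 counts may be counting error as well. Its composition also stood apart. The summed level of ribosomal protein genes was 10580 CPM in it, against 32990 and 31010 CPM in the other aKO libraries and 30750 to 34620 CPM in the Cont libraries. Collagen genes summed to 100700 CPM in it, against 57460 and 57830 CPM in the other aKO libraries and 54950 to 60770 CPM in the Cont libraries. The gene Gm42418 held 8.902% of the gene counts of the shallow library. Its share was 1.494% and 1.506% in the other aKO libraries and 1.385% to 1.551% in the Cont libraries. In the shallow library, short transcripts were also fewer, as follows. Short transcripts were depleted. With 7435 genes in 4 equal groups by exon length, its median log2 ratio to the mean of aKO replicates 1 and 3 was -0.76 in the shortest group, -0.28 and -0.05 in the middle groups and 0.11 in the longest. For aKO replicate 1 against replicate 3 the same medians ran from -0.02 to 0.03. Log2 levels of aKO replicates 1 and 3 correlated across genes with r = 0.9961, and with the shallow library at 0.8442 and 0.8409; the Cont libraries correlated at 0.9922 to 0.9941. Each result below is given over all 6 libraries, in the order of replicates 1, 2 and 3, and the fit without the shallow library is given where it changes a call.

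**Figure D1:**
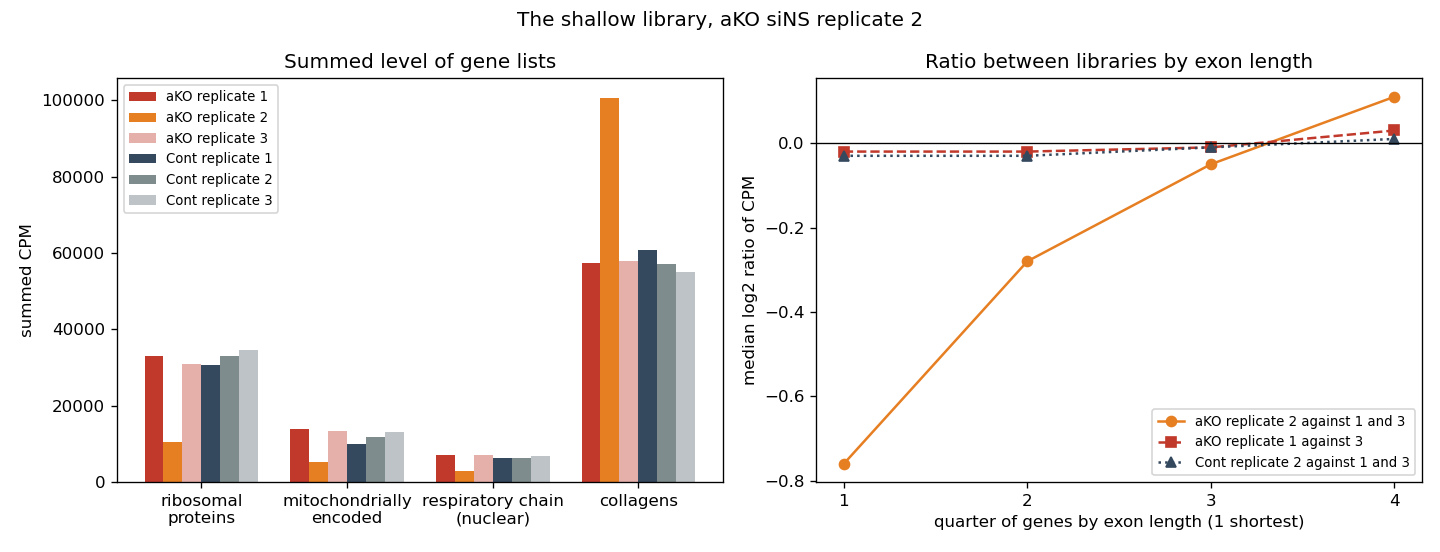
Left, summed level in CPM of ribosomal protein genes, mitochondrially encoded genes, nuclear respiratory chain genes and collagens in each inguinal siNS library; right, median log2 ratio of single libraries to other libraries of their group, in 4 equal groups of genes from short to long exons. The shallow aKO replicate 2 lies below the other libraries for ribosomal genes (10580 CPM) and above them for collagens (100700 CPM), and its ratio climbs from -0.76 for the shortest genes to 0.11 for the longest.

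Markers of the depots did not separate the libraries labelled inguinal from those labelled epididymal. Wt1, a transcription factor of visceral fat and mesothelium, had 14.3, 14.7 and 14.2 CPM in the inguinal Cont libraries and 14.3, 15.1 and 15.9 CPM in the epididymal Cont libraries. Tbx15, a transcription factor of subcutaneous fat, had 69.5, 74.8 and 75.3 CPM in the inguinal and 69.2, 67.9 and 79.2 CPM in the epididymal Cont libraries. The ranges of both genes overlapped between the depots. Between the inguinal and the epididymal Cont siNS libraries 178 of 14785 genes (1.2%) passed an adjusted p of 0.05 in edgeR, 102 higher and 76 lower in the inguinal ones, and 1144 (7.74%) passed where the shallow library, which shares the fit, was left out. With libraries of the same replicate number compared across the depots the counts were 143 (0.967%) and, without the shallow library, 2097 (14.2%). The 10 genes with the smallest p included the ribosomal protein pseudogenes Rpsa-ps10, Rpl34-ps1 and Rpl38-ps2. Over 8159 genes and without the shallow library, the median squared difference between 2 libraries was set over that of counting noise. For pairs of the same depot and the other genotype the ratio was 5.41 to 6.84 in inguinal and 6.27 to 11.7 in epididymal libraries. It was 3.17 to 7.14 for pairs of the same genotype and the other depot, and 2.01 to 4.44 for pairs within a group. This ratio grows with the depth of the libraries. The depot is named below as the labels give it.

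The 12 markers of mature adipocytes fixed for the check, from Adipoq to Fabp4, were detected in every library and summed to 3621, 4232 and 4152 CPM in the aKO libraries, against 2540, 3404 and 2954 CPM in the Cont libraries. Without Lpl, lipoprotein lipase, the sums were 1906, 1250 and 2293 CPM in the aKO libraries, against 1227, 1690 and 1487 CPM in the Cont libraries, and the shallow library lay within the Cont range. The markers of other cells were also present. Leukocyte markers summed to 2082, 1166 and 1890 CPM in the aKO libraries, against 3457, 3171 and 2516 CPM in the Cont libraries; the T cell and natural killer cell genes Cd3e and Nkg7 were at 0 in all 6. Endothelial markers summed to 117, 103 and 109.9 CPM in the aKO libraries, against 176, 169 and 179 CPM in the Cont libraries. Progenitor and fibroblast markers, led by Fn1, summed to 24050, 38120 and 24910 CPM in the aKO libraries, against 22240, 21890 and 22170 CPM in the Cont libraries. Epithelial markers stayed at or under 2.36 CPM in sum in all 6 libraries. In such cultures fewer cells of a type and less RNA per cell cannot be told apart.

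Senp2 itself (ENSMUSG00000022855, chr16:22009484-22049269 on GRCm38, plus strand) had 49.1, 57.4 and 48.0 CPM in the aKO libraries, against 55.5, 51.3 and 46.2 CPM in the Cont libraries. The groups overlapped and averaged 51.5 ± 5.11 CPM in aKO and 51.0 ± 4.67 CPM in Cont libraries (SD, n = 3 each). The difference did not pass the test (log2 fold change -0.06 ± 0.082 SE, edgeR adjusted p = 0.689). The counts cover the whole gene, and the labels do not say which part Cre deletes, so they check neither the deletion nor the labels. The paralog Senp1 had 27.4, 45.5 and 27.1 CPM in the aKO libraries, against 29.8, 32.1 and 28.8 CPM in the Cont libraries, and did not pass either (log2 fold change -0.11 ± 0.11). Of 26 tested genes of the SUMO pathway, which holds the SUMO proteins, the enzymes that attach them and the proteases, 1 passed the test: Desi1, a deSUMOylating isopeptidase, with 43.6, 35.6 and 45.0 CPM in the aKO libraries, against 55.1, 58.9 and 56.6 CPM in the Cont libraries (log2 fold change -0.38 ± 0.068 SE, edgeR adjusted p = 0.000275). The Desi1 groups did not overlap. Cebpb had 114, 103 and 127 CPM in the aKO libraries, against 145, 110.4 and 118 CPM in the Cont libraries and did not pass (log2 fold change -0.07 ± 0.16 SE, edgeR adjusted p = 0.834).

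Across the transcriptome, 1082 of 14785 tested genes (7.32%) were higher and 1161 (7.85%) lower in aKO than in Cont libraries at an adjusted p of 0.05 (edgeR quasi-likelihood test, Benjamini-Hochberg adjustment). Leaving out the shallow library gave 1338 higher (9.05%) and 1412 lower genes (9.55%), and 2203 genes passed both ways. Without aKO replicate 3 they were 684 and 755. The fit shares its estimate of spread over all 24 libraries. A fit to the 6 libraries alone, with the shallow one among them, gave 320 higher and 398 lower of 13481 tested genes. List counts from it stand against these shares. In that fit 26 of 40 mitosis genes, 3 of 25 glycolysis genes and 5 of 32 hypoxia genes fell, and 3 of 21 cholesterol synthesis genes rose. Of 34 adipogenic factors tested there 1 rose and 1 fell, close to the shares of all genes in that fit. Of 33 tendon and cartilage genes tested there 9 rose and 2 fell. Of 53 list counts of 3 or more, 36 were smaller by over 1.5 times in that fit and 3 were 0; those 3 are named with their lists. Below, a list count that moved by over 1.5 times without 1 library is given with that library, except for counts of 1 or 2, which moved by at most 2 unless given. Changes of at least 2-fold were found in 218 of the higher and 286 of the lower genes. For 1714 genes (11.6%) all 3 aKO libraries lay above all 3 Cont libraries, and for 2095 (14.2%) they lay below. In the epididymal siNS libraries 1405 genes (9.5%) were higher and 1608 (10.9%) lower in aKO, and in the inguinal siCEBPb libraries 521 (3.52%) were higher and 962 (6.51%) lower. In the lists of cell division, glycolysis, the response to low oxygen and visceral fat, the members that passed were nearly all lower in aKO, and in those of cholesterol synthesis, tendon and cartilage matrix and adipogenic factors most of those that passed were higher, with the counts that follow. Every list count over the 6 libraries below stands against 7.32% of all genes higher and 7.85% lower.

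**Figure D2:**
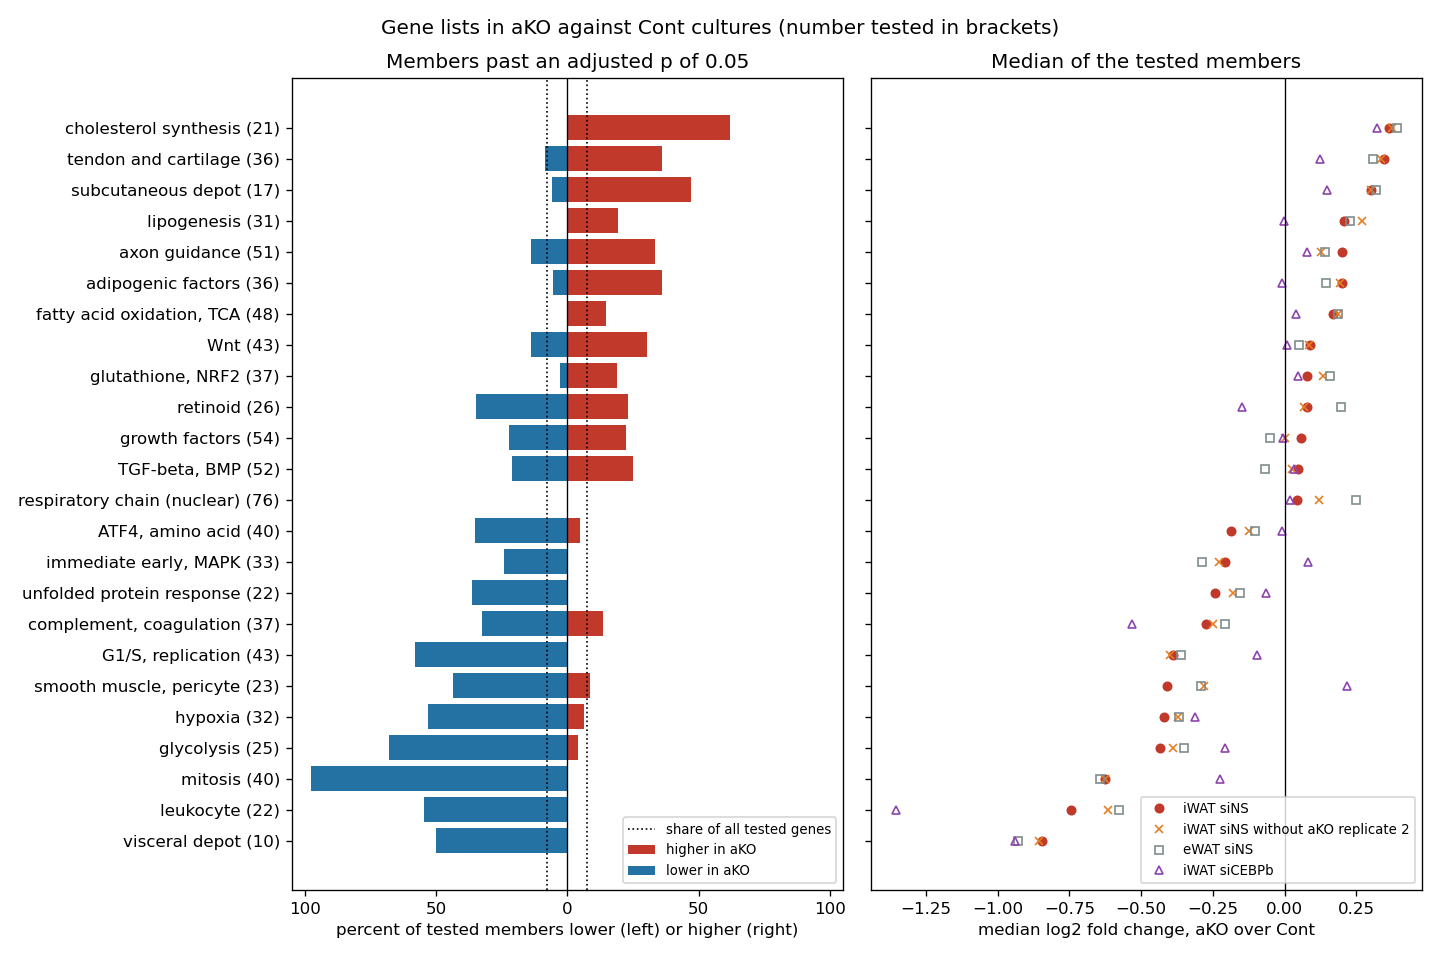
Left, percent of the tested members of 24 gene lists that were higher or lower in aKO than in Cont inguinal siNS libraries past an adjusted p of 0.05, with dotted lines at the shares over all genes (7.32% higher, 7.85% lower); right, median log2 fold change of each list over all 6 libraries, without the shallow aKO replicate 2, in the epididymal siNS libraries and in the inguinal siCEBPb libraries. Mitosis genes stand at 39 of 40 lower, and cholesterol synthesis has 13 of 21 higher.

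Genes of cell division were lower in aKO libraries. Of 40 tested genes of mitosis and cytokinesis 39 fell and none rose, with a median log2 fold change of -0.62, against 7.85% of all genes lower and a median of all genes near 0. The exception was Cenpa, the centromeric histone, with 12.7, 19.8 and 12.9 CPM in the aKO libraries, against 20.97, 17.0 and 12.99 CPM in the Cont libraries (log2 fold change -0.41 ± 0.15 SE, edgeR adjusted p = 0.0648); without the shallow library all 40 were lower. Mki67, the proliferation marker Ki-67, had 144, 134 and 132 CPM in the aKO libraries, against 252, 244 and 219 CPM in the Cont libraries (log2 fold change -0.80 ± 0.085 SE, edgeR adjusted p = 1.29e-07). Every aKO library lay below every Cont library. Top2a, the topoisomerase that untangles replicated chromosomes, had 91.5, 77.1 and 87.2 CPM in the aKO libraries, against 143, 149 and 133 CPM in the Cont libraries (log2 fold change -0.68 ± 0.085 SE, edgeR adjusted p = 1.56e-06). Cenpf, a kinetochore protein, had 25.6, 19.8 and 23.3 CPM in the aKO libraries, against 40.5, 39.0 and 42.5 CPM in the Cont libraries (log2 fold change -0.74 ± 0.098 SE, edgeR adjusted p = 3.76e-06). Anln, the scaffold of the cytokinetic ring, had 42.7, 25.7 and 39.1 CPM in the aKO libraries, against 72.7, 68.0 and 68.3 CPM in the Cont libraries (log2 fold change -0.80 ± 0.099 SE, edgeR adjusted p = 1.51e-06). None of these groups overlapped. Kif11, the kinesin that pushes the spindle poles apart, and Hmmr, a spindle protein, changed by -0.71 and -0.79 on the log2 scale, again without overlap. Summed over the list, the level was 936, 769.5 and 867 CPM in the aKO libraries, against 1489, 1386 and 1366 CPM in the Cont libraries.

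The same held in part for DNA replication. Of 43 tested genes of the G1 to S transition and replication 25 fell and none rose (median -0.39); the count was 15 without aKO replicate 3 and 16 without Cont replicate 1. Mcm2, a subunit of the replicative helicase, had 32.0, 25.7 and 30.5 CPM in the aKO libraries, against 43.8, 41.2 and 43.4 CPM in the Cont libraries (log2 fold change -0.47 ± 0.082 SE, edgeR adjusted p = 0.000169). Tyms, which makes thymidylate, had 16, 13.8 and 16.3 CPM in the aKO libraries, against 25.6, 24.4 and 25.7 CPM in the Cont libraries (log2 fold change -0.65 ± 0.11 SE, edgeR adjusted p = 7.62e-05). Uhrf1, which recruits the maintenance DNA methyltransferase to new DNA, had 37.8, 25.7 and 33.7 CPM in the aKO libraries, against 54.9, 52.8 and 50.04 CPM in the Cont libraries (log2 fold change -0.58 ± 0.095 SE, edgeR adjusted p = 6.99e-05). The aKO libraries were the lower ones throughout, with no overlap. Ccnd2, a D-type cyclin, had 672, 556 and 644 CPM in the aKO libraries, against 620.0, 618 and 661 CPM in the Cont libraries and did not pass (log2 fold change -0.01 ± 0.082 SE, edgeR adjusted p = 0.977). Of 23 tested inhibitors of cyclin-dependent kinases and p53 targets 4 rose and 1 fell. Cdkn2b, the inhibitor p15, had 48.9, 41.5 and 52.2 CPM in the aKO libraries, against 37.8, 36.5 and 34.2 CPM in the Cont libraries (log2 fold change 0.46 ± 0.092 SE, edgeR adjusted p = 0.000677), and the groups did not overlap. Cdkn1a, the inhibitor p21, had 365, 257 and 373 CPM in the aKO libraries, against 355, 336 and 368 CPM in the Cont libraries and did not pass (log2 fold change -0.04 ± 0.092 SE, edgeR adjusted p = 0.849).

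The promoters of Mki67, Top2a and Cenpf are shown because these members had the smallest p among the mitosis genes whose promoters hold both motifs looked for. Each runs from 250 bases before to 50 bases after the RefSeq transcription start (GRCm38.p6), written 5′ to 3′ on the strand of the gene. Capitals mark CCAAT, the site of the factor NF-Y, and TTTGAA, the core of the cell cycle homology region found in many promoters of the late cell cycle, with their reverse complements ATTGG and TTCAAA; no matches overlapped. The regions are chr7:135716330-135716629, minus strand for Mki67, chr11:99024140-99024439, minus strand for Top2a and chr1:189688037-189688336, minus strand for Cenpf.
Mki67: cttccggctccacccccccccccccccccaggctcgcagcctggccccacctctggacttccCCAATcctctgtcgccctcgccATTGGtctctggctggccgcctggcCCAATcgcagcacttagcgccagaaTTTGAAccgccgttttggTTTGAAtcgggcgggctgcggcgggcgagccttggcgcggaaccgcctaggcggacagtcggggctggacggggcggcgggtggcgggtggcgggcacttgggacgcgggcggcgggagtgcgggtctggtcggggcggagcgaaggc
Top2a: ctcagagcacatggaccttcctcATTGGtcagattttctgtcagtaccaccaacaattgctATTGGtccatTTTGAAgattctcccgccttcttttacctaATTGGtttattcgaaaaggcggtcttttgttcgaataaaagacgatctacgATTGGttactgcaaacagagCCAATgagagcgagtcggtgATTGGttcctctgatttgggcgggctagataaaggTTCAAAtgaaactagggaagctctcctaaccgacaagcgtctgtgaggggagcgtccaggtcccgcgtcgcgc
Cenpf: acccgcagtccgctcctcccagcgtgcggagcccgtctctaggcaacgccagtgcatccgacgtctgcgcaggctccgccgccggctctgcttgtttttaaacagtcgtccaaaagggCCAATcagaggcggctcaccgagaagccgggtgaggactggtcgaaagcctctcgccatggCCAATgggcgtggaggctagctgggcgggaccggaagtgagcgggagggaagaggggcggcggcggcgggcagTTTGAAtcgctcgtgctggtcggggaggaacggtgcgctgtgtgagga

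RefSeq promoters were at hand for 35 of the 40 mitosis genes. A gene counted where any of its promoters held the motif. TTTGAA stood in 27 of the 35 (77.1%) on either strand, against 20.2% of all 27025 genes with a promoter in the table. It began within 50 bases of the start in 25 (71.4%), against 3.87% of the 10730 tested genes with a promoter in the table. CCAAT stood in 26 (74.3%), against 41.1% of the 27025 genes, and both motifs in 23 (65.7%), against 8.97%. Mki67 held 3 matches of CCAAT and 2 of TTTGAA, Top2a 6 and 2, and Cenpf 2 and 1. The TTTGAA matches began at -116 and -98 bases from the start in Mki67, -179 and -23 in Top2a and 2 in Cenpf. Those of Mki67 thus lay further than 50 bases from the start. Among all genes lower in aKO with a promoter at hand, TTTGAA stood in 20.1% and CCAAT in 45.7%. Among all tested genes with a promoter at hand the shares were 14.5% and 42.7%. The lower genes include 39 of the 40 mitosis genes, and the shares without them were not computed. All of these are matches of letters and not bound sites.

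Genes of glucose uptake and glycolysis were lower in aKO libraries. Of 25 tested members 17 fell and 1 rose (median -0.43). Slc16a3, the lactate exporter MCT4, had 106, 77.1 and 97.0 CPM in the aKO libraries, against 246, 261 and 264 CPM in the Cont libraries (log2 fold change -1.38 ± 0.08 SE, edgeR adjusted p = 2.81e-12). Slc2a1, the basal glucose transporter GLUT1, had 119.9, 121 and 122 CPM in the aKO libraries, against 202, 216 and 219 CPM in the Cont libraries (log2 fold change -0.81 ± 0.072 SE, edgeR adjusted p = 6.16e-09). In both, the aKO libraries were all below the Cont libraries. Pgk1, which makes the first ATP of the pathway, had 389.7, 192 and 381 CPM in the aKO libraries, against 607, 628 and 577 CPM in the Cont libraries (log2 fold change -0.82 ± 0.12 SE, edgeR adjusted p = 2.71e-05). Gpi1, the next enzyme after hexokinase, had 512, 449 and 474 CPM in the aKO libraries, against 659.8, 709.9 and 699 CPM in the Cont libraries (log2 fold change -0.52 ± 0.077 SE, edgeR adjusted p = 2.14e-05). Pfkfb3, which makes the activator of phosphofructokinase, fell with 77.4, 73.2 and 85.8 CPM in the aKO libraries, against 104, 127 and 107 CPM in the Cont libraries (log2 fold change -0.47 ± 0.081 SE, edgeR adjusted p = 0.000142). No overlap was seen in these either. Pkm, the final enzyme and 1 of the 10 most abundant genes that passed, had 1855, 1436 and 1770 CPM in the aKO libraries, against 2228, 2341 and 2459 CPM in the Cont libraries (log2 fold change -0.47 ± 0.095 SE, edgeR adjusted p = 0.000937). Pfkp and Pfkm, subunits of phosphofructokinase, did not pass, at -0.09 and 0.21 on the log2 scale. The list summed to 8352, 5647 and 8180 CPM in the aKO libraries, against 10700, 11230 and 11230 CPM in the Cont libraries.

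Of 32 other genes tied to the hypoxia-inducible factors 17 fell and 2 rose (median -0.42). Ak4, a mitochondrial adenylate kinase, had 29.3, 19.8 and 29.0 CPM in the aKO libraries, against 52.1, 61.7 and 58.7 CPM in the Cont libraries (log2 fold change -0.996 ± 0.098 SE, edgeR adjusted p = 3.69e-08). Egln3, an oxygen-sensing hydroxylase that is itself a target of the factors, had 4.82, 7.91 and 4.64 CPM in the aKO libraries, against 12.6, 13.1 and 12.3 CPM in the Cont libraries (log2 fold change -1.39 ± 0.20 SE, edgeR adjusted p = 1.26e-05). Egln1 had 108, 71.2 and 114 CPM in the aKO libraries, against 162, 177 and 166 CPM in the Cont libraries (log2 fold change -0.65 ± 0.089 SE, edgeR adjusted p = 5.81e-06). The collagen prolyl hydroxylases P4ha1 and P4ha2 fell by 0.54 and 0.47 on the log2 scale, at adjusted p = 3.36e-06 and 2.38e-05 in edgeR. All these aKO libraries lay below all Cont libraries. Vegfa, the angiogenic growth factor, turned on the shallow library, with 116, 356 and 125 CPM in the aKO libraries, against 203, 222 and 202 CPM in the Cont libraries. It did not pass over 6 libraries (log2 fold change -0.44 ± 0.23 SE, edgeR adjusted p = 0.217) and fell without the shallow one, by 0.80 on the log2 scale (adjusted p = 6.58e-10). Lox, which cross-links collagen, had 6103, 4693 and 6243 CPM in the aKO libraries, against 6021, 5907 and 6644 CPM in the Cont libraries and did not pass (log2 fold change -0.12 ± 0.12 SE, edgeR adjusted p = 0.552).

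The promoters of Slc16a3 (chr11:120948817-120949116, plus strand) and Slc2a1 (chr4:119108495-119108794, plus strand), the glycolysis members with the smallest p that hold the motif, are shown from RefSeq in the same window and build. Capitals mark ACGTG, the core of the hypoxia response element, searched on both strands (CACGT on the other).
Slc16a3: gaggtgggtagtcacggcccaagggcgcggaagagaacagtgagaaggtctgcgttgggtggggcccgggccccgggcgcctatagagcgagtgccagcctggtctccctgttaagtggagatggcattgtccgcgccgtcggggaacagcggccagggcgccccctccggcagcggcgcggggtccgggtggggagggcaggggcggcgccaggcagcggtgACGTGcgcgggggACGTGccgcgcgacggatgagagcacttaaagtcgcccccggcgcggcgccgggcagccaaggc
Slc2a1: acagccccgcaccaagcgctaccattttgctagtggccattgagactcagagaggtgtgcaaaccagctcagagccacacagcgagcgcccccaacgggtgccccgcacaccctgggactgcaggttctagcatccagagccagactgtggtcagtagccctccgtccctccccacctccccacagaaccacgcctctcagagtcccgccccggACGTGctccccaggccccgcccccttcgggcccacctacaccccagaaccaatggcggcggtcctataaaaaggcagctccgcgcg

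ACGTG stood in promoters of 14 of the 23 glycolysis genes (60.9%) and 14 of the 22 hypoxia genes (63.6%) with a promoter at hand. The shares were 21.8% of all genes with a promoter in the table and 28.8% of the 10730 tested ones. Slc16a3 held 2 matches and Slc2a1 held 1. Among all genes that passed and had a promoter at hand, ACGTG stood in 27.6% of the lower genes and in 28.5% of the higher genes. The matches are letters only, and no binding was measured here.

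Enzymes of cholesterol synthesis rose in aKO libraries. Of 21 tested members 13 rose and none fell (median 0.36), and 17 rose without the shallow library. Tm7sf2, a sterol reductase late in the pathway, had 27.0, 15.8 and 29.7 CPM in the aKO libraries, against 14.3, 13.8 and 13.7 CPM in the Cont libraries (log2 fold change 0.99 ± 0.12 SE, edgeR adjusted p = 6.34e-07). The lowest aKO library, the shallow one, still lay above the Cont libraries. Lss, which closes the sterol rings, had 99.98, 140.4 and 109 CPM in the aKO libraries, against 74.5, 64.3 and 77.7 CPM in the Cont libraries (log2 fold change 0.58 ± 0.095 SE, edgeR adjusted p = 7.67e-05). Nsdhl, which removes methyl groups from sterols, had 77.3, 63.3 and 76.9 CPM in the aKO libraries, against 48.2, 52.0 and 53.5 CPM in the Cont libraries (log2 fold change 0.57 ± 0.099 SE, edgeR adjusted p = 0.000153). Sqle, the epoxidase before ring closure, rose by 0.36 on the log2 scale, also without overlap. Mvk, mevalonate kinase, had 48.1, 33.6 and 51.8 CPM in the aKO libraries, against 33.5, 31.2 and 36.8 CPM in the Cont libraries (log2 fold change 0.54 ± 0.085 SE, edgeR adjusted p = 4.29e-05), and its shallow library lay inside the Cont range. Hmgcs1, Cyp51 and Msmo1 were among those that passed without the shallow library and not with it. Hmgcs1, which makes the precursor of mevalonate, had 248, 174 and 267 CPM in the aKO libraries, against 213, 194 and 220.4 CPM in the Cont libraries, with adjusted p = 0.137 over 6 libraries and 0.00288 without the shallow one in edgeR. The list summed to 1951, 1488 and 2000 CPM in the aKO libraries, against 1530, 1433 and 1652 CPM in the Cont libraries.

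The promoters of Tm7sf2 (chr19:6067801-6068100, minus strand) and Mvk (chr5:114444019-114444318, plus strand) are shown from RefSeq as the cholesterol synthesis members with the smallest p that hold CCAAT, which is in capitals together with its reverse complement ATTGG.
Tm7sf2: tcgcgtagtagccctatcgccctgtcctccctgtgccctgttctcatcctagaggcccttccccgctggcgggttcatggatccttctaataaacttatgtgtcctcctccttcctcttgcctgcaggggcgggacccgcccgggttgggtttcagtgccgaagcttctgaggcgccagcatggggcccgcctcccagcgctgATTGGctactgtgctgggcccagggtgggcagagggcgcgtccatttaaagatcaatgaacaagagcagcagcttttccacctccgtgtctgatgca
Mvk: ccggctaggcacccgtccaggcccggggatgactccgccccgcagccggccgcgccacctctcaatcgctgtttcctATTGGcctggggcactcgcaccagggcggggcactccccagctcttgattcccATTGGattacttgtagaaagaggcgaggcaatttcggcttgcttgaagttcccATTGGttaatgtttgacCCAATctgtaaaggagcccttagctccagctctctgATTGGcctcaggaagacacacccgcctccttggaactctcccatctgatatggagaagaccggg

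CCAAT stood in promoters of 15 of the 16 cholesterol synthesis genes at hand (93.8%), against 41.1% of all genes with a promoter in the table. The printed promoters held 1 match in Tm7sf2 and 5 in Mvk. Promoters were at hand for 16 of 21 members, so these shares leave out a part of the list. The sterol regulatory element, written here as TCACNCCAC, stood in 1 of the 16 (6.25%), against 1.44% of all genes with a promoter in the table.

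**Figure D3:**
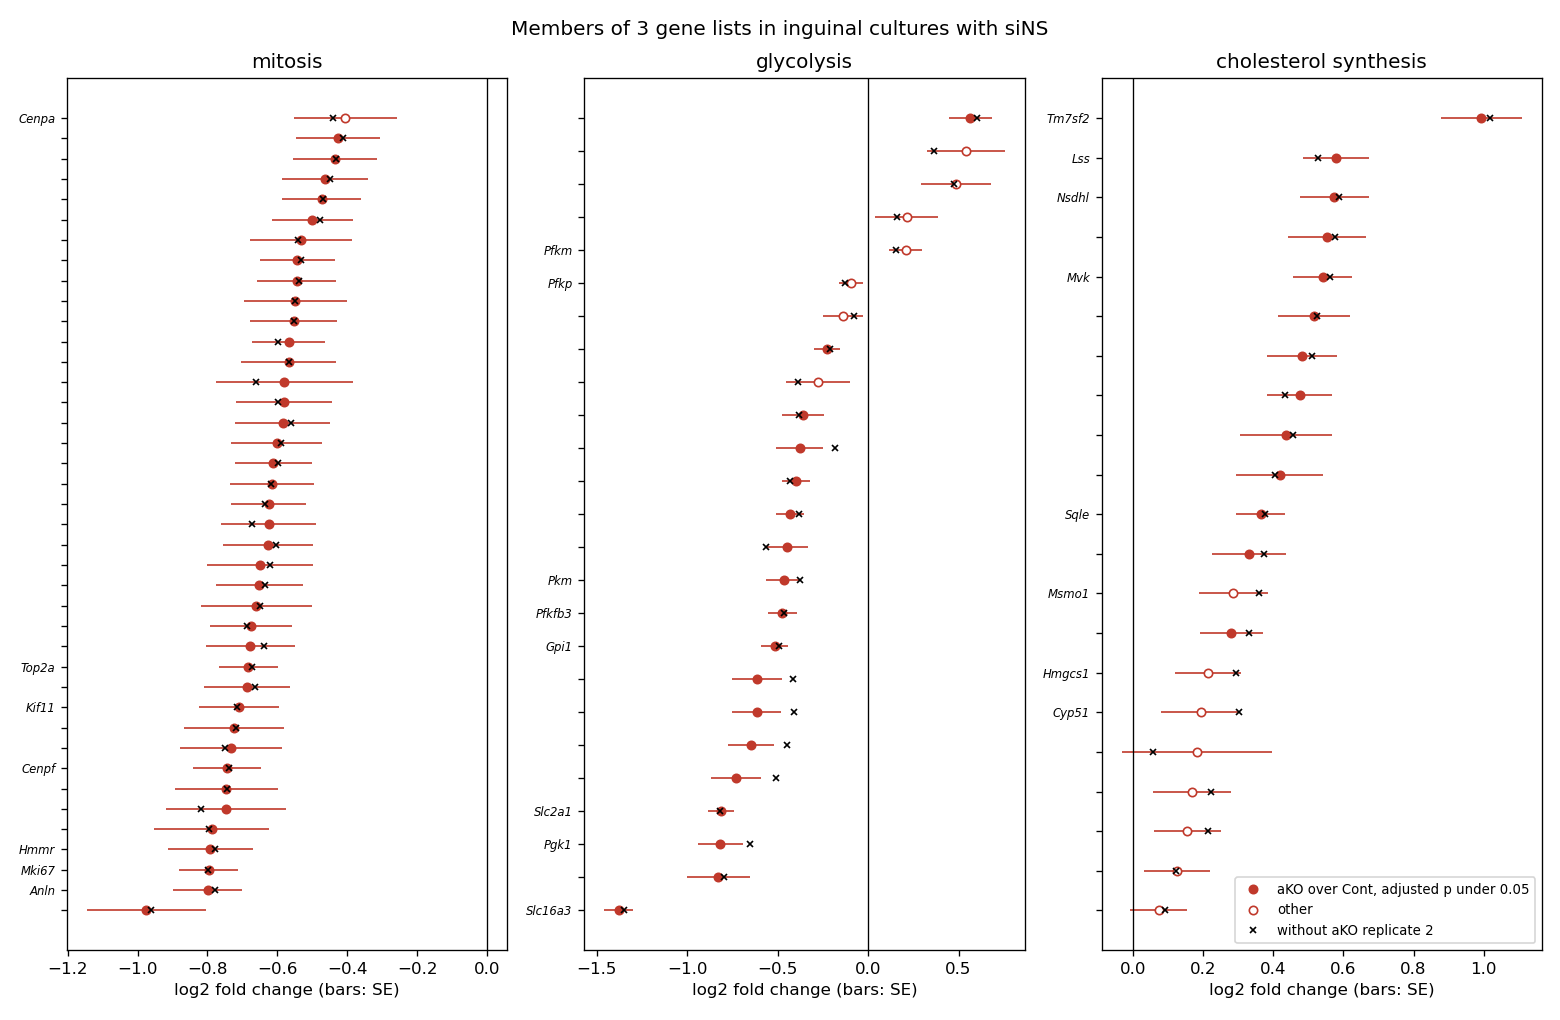
Log2 fold change of aKO over Cont inguinal siNS libraries, with standard error bars, for each tested member of the mitosis, glycolysis and cholesterol synthesis lists, with symbols for some of the members described in the text; filled points passed an adjusted p of 0.05 and crosses give the fit without the shallow library. Mitosis genes lie to the left of 0, with Mki67 at -0.80, Slc16a3 leads the fall of glycolysis genes at -1.38, and Tm7sf2 leads the rise of cholesterol synthesis at 0.99.

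Other sterol genes moved both ways. Of 25 tested genes of cholesterol uptake and export 5 rose and 2 fell; the higher count was 3 without Cont replicate 1, and 0 in the fit to the 6 libraries alone. Ch25h, which makes the signalling oxysterol 25-hydroxycholesterol, had 7.23, 3.96 and 7.68 CPM in the aKO libraries, against 35.8, 34.4 and 26.0 CPM in the Cont libraries (log2 fold change -2.13 ± 0.14 SE, edgeR adjusted p = 1.5e-11). Abca1, the sterol exporter, had 447, 467 and 448 CPM in the aKO libraries, against 327, 344 and 327 CPM in the Cont libraries (log2 fold change 0.44 ± 0.10 SE, edgeR adjusted p = 0.00279). Neither gene's groups overlapped. Of 17 tested genes of steroid synthesis 3 rose and 1 fell. Star, which brings cholesterol to the inner mitochondrial membrane, was the one that fell, with 3.27, 1.98 and 4.11 CPM in the aKO libraries, against 20.2, 24.9 and 26.2 CPM in the Cont libraries (log2 fold change -2.68 ± 0.16 SE, edgeR adjusted p = 3.26e-12). Akr1c14, a hydroxysteroid dehydrogenase, had 5.25, 3.96 and 6.92 CPM in the aKO libraries, against 2.06, 1.78 and 1.68 CPM in the Cont libraries (log2 fold change 1.70 ± 0.26 SE, edgeR adjusted p = 2.56e-05). The aKO libraries of Star all lay below, and those of Akr1c14 all above, the Cont libraries.

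Among 36 tested transcription factors of adipocyte differentiation 13 rose and 2 fell (median 0.20); the higher count was 3 without aKO replicate 3, 5 without Cont replicate 1 and 7 without Cont replicate 3. Where the fold change had to exceed 1.2, 1 rose and none fell. Pparg, the master regulator of fat cells, had 36.0, 17.8 and 44.3 CPM in the aKO libraries, against 19.99, 29.6 and 26.7 CPM in the Cont libraries (log2 fold change 0.63 ± 0.16 SE, edgeR adjusted p = 0.00876). Its shallow library lay below the Cont libraries while the other aKO libraries lay above them, and its edgeR adjusted p was 0.0632 without Cont replicate 1 and 0.167 without aKO replicate 3. Cebpa had 135, 104.8 and 167 CPM in the aKO libraries, against 83.8, 97.1 and 87.1 CPM in the Cont libraries (log2 fold change 0.71 ± 0.19 SE, edgeR adjusted p = 0.0144), without overlap. Its edgeR adjusted p was 0.0577 without Cont replicate 1 and 0.153 without aKO replicate 3. Rxra, the partner receptor of PPARγ, had 140.4, 140.4 and 136 CPM in the aKO libraries, against 110.5, 103 and 106 CPM in the Cont libraries (log2 fold change 0.38 ± 0.072 SE, edgeR adjusted p = 0.000407). Zbtb16, a zinc finger factor, had 21.3, 45.5 and 27.8 CPM in the aKO libraries, against 8.64, 16.2 and 13.5 CPM in the Cont libraries (log2 fold change 1.03 ± 0.21 SE, edgeR adjusted p = 0.00137). Both were higher in every aKO library than in every Cont library. Arntl, the clock factor BMAL1, fell, with 19.9, 17.8 and 18.4 CPM in the aKO libraries, against 26.6, 26.0 and 24.1 CPM in the Cont libraries (log2 fold change -0.43 ± 0.093 SE, edgeR adjusted p = 0.00183).

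Genes of the mature fat cell were less clear. Of 36 tested genes of lipid storage and lipolysis 2 rose and 1 fell, with a median of 0.25; the higher count was 7 without aKO replicate 2 and 1 without Cont replicate 1. Adipoq, adiponectin, had 149.8, 59.3 and 187 CPM in the aKO libraries, against 65.8, 94.9 and 87.9 CPM in the Cont libraries (log2 fold change 0.91 ± 0.30 SE, edgeR adjusted p = 0.0501); without the shallow library, which lay below all Cont libraries, the adjusted p was 0.0218. Fabp4, the fatty acid binding protein of fat cells, had 628, 396 and 709 CPM in the aKO libraries, against 406, 592 and 525 CPM in the Cont libraries, and Lpl, lipoprotein lipase, had 1715, 2982 and 1859 CPM in the aKO libraries, against 1313, 1714 and 1467 CPM in the Cont libraries. Neither passed, at 0.24 and 0.53 on the log2 scale. Mgll, the last lipase of lipolysis, had 65.7, 61.3 and 80.9 CPM in the aKO libraries, against 43.4, 54.9 and 49.8 CPM in the Cont libraries (log2 fold change 0.56 ± 0.12 SE, edgeR adjusted p = 0.00192); its edgeR adjusted p was 0.0809 without aKO replicate 3. Of 31 tested genes of fatty acid and triglyceride synthesis 6 rose and none fell; the count was 3 without aKO replicate 3, 3 without Cont replicate 1 and 3 without Cont replicate 3. Elovl6, a fatty acid elongase, had 57.5, 43.5 and 65.4 CPM in the aKO libraries, against 33.5, 38.6 and 38.7 CPM in the Cont libraries (log2 fold change 0.71 ± 0.11 SE, edgeR adjusted p = 2.32e-05). Lpin1, a phosphatidate phosphatase, had 100.4, 109 and 109.6 CPM in the aKO libraries, against 67.5, 78.8 and 75.7 CPM in the Cont libraries (log2 fold change 0.51 ± 0.084 SE, edgeR adjusted p = 7.75e-05). Fasn, fatty acid synthase, passed over 6 libraries at 1527, 2431 and 1819 CPM in the aKO libraries, against 1059, 1388 and 1165 CPM in the Cont libraries (log2 fold change 0.67 ± 0.20 SE, edgeR adjusted p = 0.0291). Its edgeR adjusted p was 0.115 without Cont replicate 1, 0.0845 without Cont replicate 3, 0.177 without aKO replicate 2 and 0.0703 without aKO replicate 3.

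Of 34 tested adipokines and other secreted products 3 rose and 7 fell; the higher count was 8 without aKO replicate 2 and 5 without Cont replicate 2. Rarres2, the precursor of chemerin, had 39.6, 13.8 and 38.0 CPM in the aKO libraries, against 87.0, 98.1 and 94.9 CPM in the Cont libraries (log2 fold change -1.31 ± 0.16 SE, edgeR adjusted p = 6.37e-06). Apln, the peptide apelin, had 34.1, 23.7 and 39.9 CPM in the aKO libraries, against 71.5, 95.7 and 68.4 CPM in the Cont libraries (log2 fold change -1.11 ± 0.16 SE, edgeR adjusted p = 3.42e-05). Both were lower in every aKO library. Fgf21, a hormone of fasting, was near the detection limit, with 0.344, 0 and 0.228 CPM in the aKO libraries, against 1.48, 0.990 and 0.842 CPM in the Cont libraries (log2 fold change -2.004 ± 0.52 SE, edgeR adjusted p = 0.00675; the adjusted p was 0.0584 without Cont replicate 1 and 0.087 without aKO replicate 3). In the insulin signalling list 7 of 30 tested genes rose and 5 fell; the higher count was 2 without aKO replicate 3, and the lower was 3 without aKO replicate 1 and 3 without aKO replicate 3. Irs1, the docking protein of the insulin receptor, had 85.5, 107 and 86.6 CPM in the aKO libraries, against 69.5, 56.7 and 58.3 CPM in the Cont libraries (log2 fold change 0.51 ± 0.085 SE, edgeR adjusted p = 0.000103). Pik3r1, the regulatory subunit of PI3-kinase, had 218, 346 and 217 CPM in the aKO libraries, against 145, 173 and 141 CPM in the Cont libraries (log2 fold change 0.65 ± 0.13 SE, edgeR adjusted p = 0.000904). Gys1, glycogen synthase, fell, with 130.0, 180.0 and 132 CPM in the aKO libraries, against 177, 190.3 and 183 CPM in the Cont libraries (log2 fold change -0.42 ± 0.083 SE, edgeR adjusted p = 0.000617). Irs1 and Pik3r1 did not overlap between the groups, while the shallow library put Gys1 inside the Cont range. Slc2a4, the insulin-responsive transporter GLUT4, had 14.4, 7.91 and 18.5 CPM in the aKO libraries, against 6.17, 10.00 and 9.38 CPM in the Cont libraries (log2 fold change 0.94 ± 0.28 SE, edgeR adjusted p = 0.0227), with overlap from the shallow library. Its edgeR adjusted p was 0.12 without Cont replicate 1 and 0.215 without aKO replicate 3.

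Genes tied to brown and beige fat moved in both directions. Of 37 tested members 6 rose and 4 fell; the lower count was 2 without aKO replicate 3 and 2 without Cont replicate 1, and 0 in the fit to the 6 libraries alone. Ucp1, the uncoupling protein that makes heat, had 0 counts in all 6 libraries and 1 count in all 24, and Cidea, a lipid droplet protein of brown fat, had 1 count in the aKO and 1 in the Cont libraries. Both therefore lay under the floor of 3 counts. Ppargc1a, the coactivator PGC-1α of mitochondrial and heat-producing genes, had 2.92, 1.98 and 2.97 CPM in the aKO libraries, against 0.411, 0.693 and 0.241 CPM in the Cont libraries (log2 fold change 2.65 ± 0.34 SE, edgeR adjusted p = 2.35e-06). Tbx1, a transcription factor used as a beige marker, had 2.32, 1.98 and 2.74 CPM in the aKO libraries, against 0.329, 0.198 and 0.120 CPM in the Cont libraries (log2 fold change 3.41 ± 0.45 SE, edgeR adjusted p = 3.6e-06). Tmem26, another beige marker, had 5.08, 3.96 and 4.64 CPM in the aKO libraries, against 1.97, 1.68 and 1.68 CPM in the Cont libraries (log2 fold change 1.42 ± 0.27 SE, edgeR adjusted p = 0.000389). All 3 were higher in every aKO library, at low levels; the values of Ppargc1a and Tbx1 in the shallow library are 1 count each. Pdk4, which blocks the entry of pyruvate into mitochondria, had 25.7, 21.8 and 29.4 CPM in the aKO libraries, against 16.5, 16.8 and 19.1 CPM in the Cont libraries (log2 fold change 0.65 ± 0.11 SE, edgeR adjusted p = 0.000135). Prdm16 and Dio2, a regulator and an enzyme of brown fat, had log2 fold changes of -0.27 and -0.26 and did not pass. Elovl3, Cox7a1 and Cox8b were detected at no more than 37 counts in any of the 6 libraries and did not pass.

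Of 76 nuclear genes of the respiratory chain 0 passed over 6 libraries (median 0.04). Without the shallow library, where 9.05% of all genes rose, 9 of them rose and none fell (median 0.12). They summed to 7041, 2780 and 7192 CPM in the aKO libraries, against 6233, 6418 and 6861 CPM in the Cont libraries, so that the aKO libraries other than the shallow one lay above the Cont libraries. None of the 13 mitochondrially encoded genes passed. Their sums were 13830, 5140 and 13300 CPM in the aKO libraries, against 9925, 11930 and 13110 CPM in the Cont libraries. Of 48 genes of fatty acid oxidation and the citric acid cycle 7 rose and none fell (median 0.17); the count was 18 without aKO replicate 2, 1 without aKO replicate 3, 2 without Cont replicate 1 and 3 without Cont replicate 2. Acads, the short-chain acyl-CoA dehydrogenase, had 32.8, 27.7 and 33.8 CPM in the aKO libraries, against 27.5, 24.9 and 22.5 CPM in the Cont libraries (log2 fold change 0.40 ± 0.10 SE, edgeR adjusted p = 0.00688); its edgeR adjusted p was 0.0759 without aKO replicate 3.

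**Figure D4:**
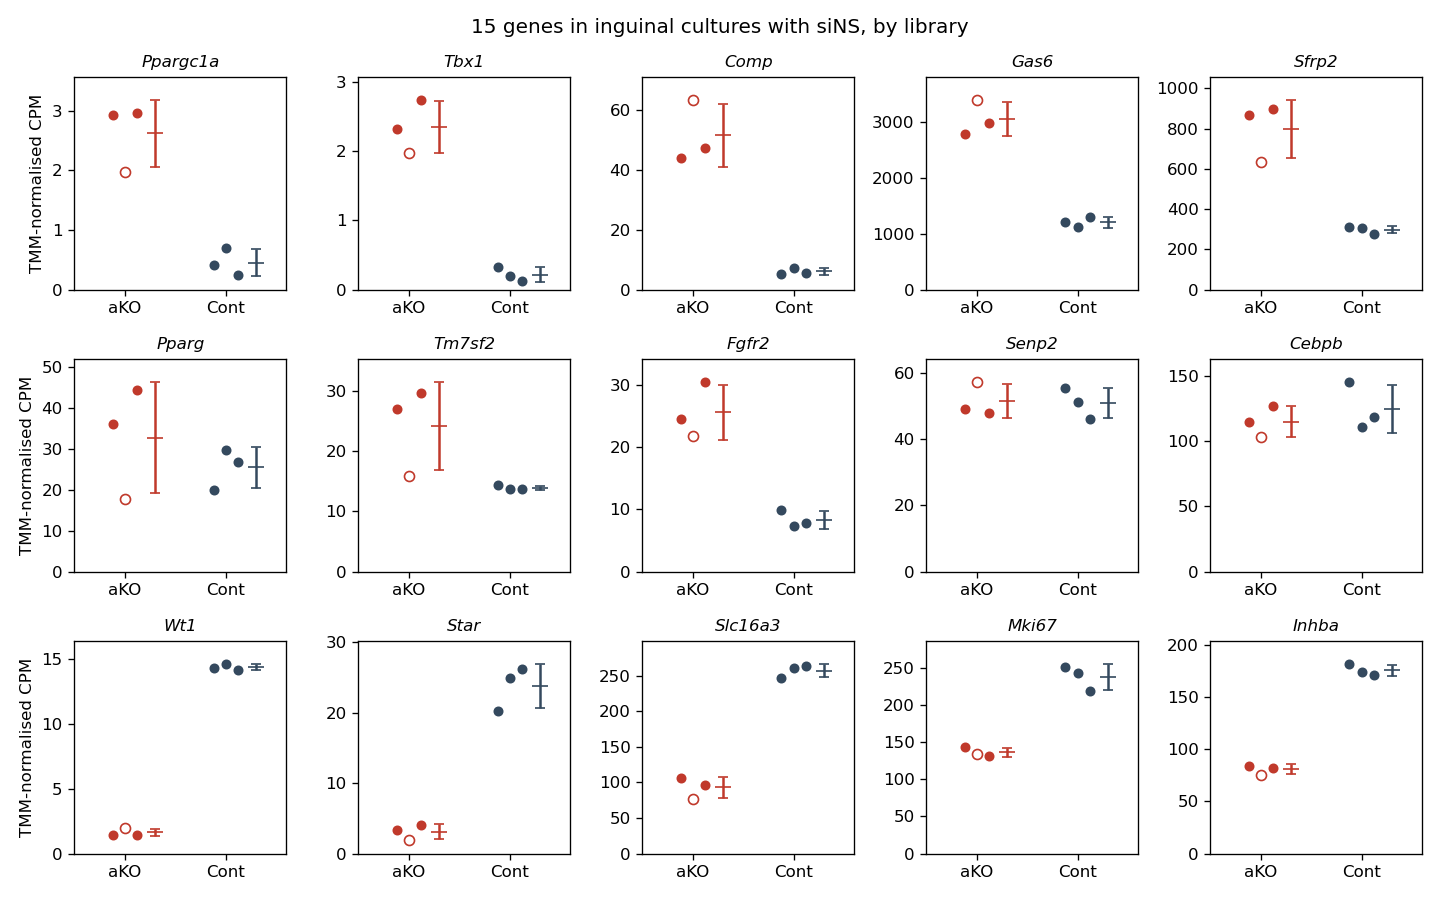
CPM of 15 genes in each inguinal siNS library, aKO left and Cont right; points are libraries, the open circle is the shallow aKO replicate 2, and the bar is the mean with its SD. Ppargc1a, Tbx1, Comp, Gas6, Sfrp2 and Fgfr2 are higher in every aKO library, Wt1, Star, Slc16a3, Mki67 and Inhba are lower in every one, and Senp2 and Cebpb overlap.

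The largest rises by the rule for named genes included matrix, membrane and metabolic genes. Comp, a pentameric protein of cartilage and tendon matrix, had 43.9, 63.3 and 47.1 CPM in the aKO libraries, against 5.26, 7.23 and 5.65 CPM in the Cont libraries (log2 fold change 2.95 ± 0.18 SE, edgeR adjusted p = 1.23e-11). Ptn, the growth factor pleiotrophin, had 6.97, 11.9 and 3.19 CPM in the aKO libraries, against 0.823, 0.495 and 0.722 CPM in the Cont libraries (log2 fold change 2.90 ± 0.67 SE, edgeR adjusted p = 0.00499; the adjusted p was 0.0628 without aKO replicate 1). Clec14a, a C-type lectin of blood vessel cells, had 16.5, 15.8 and 17.4 CPM in the aKO libraries, against 4.36, 3.56 and 3.01 CPM in the Cont libraries (log2 fold change 2.19 ± 0.20 SE, edgeR adjusted p = 7.08e-09). Gldc, the glycine decarboxylase, had 21.6, 13.8 and 17.8 CPM in the aKO libraries, against 4.36, 3.96 and 4.57 CPM in the Cont libraries (log2 fold change 2.17 ± 0.17 SE, edgeR adjusted p = 5.82e-10). Apod, a lipocalin that carries small lipids, had 54.5, 21.8 and 49.3 CPM in the aKO libraries, against 13.1, 10.00 and 13.7 CPM in the Cont libraries (log2 fold change 2.03 ± 0.14 SE, edgeR adjusted p = 2.22e-10). In each of these 5 genes the aKO libraries all lay above the Cont libraries. The largest falls were led by Wt1, with 1.46, 1.98 and 1.45 CPM in the aKO libraries, against 14.3, 14.7 and 14.2 CPM in the Cont libraries (log2 fold change -3.29 ± 0.18 SE, edgeR adjusted p = 1.06e-12). Ackr4, a scavenger receptor of chemokines, had 1.119, 0 and 1.90 CPM in the aKO libraries, against 8.64, 9.21 and 15.5 CPM in the Cont libraries (log2 fold change -2.86 ± 0.33 SE, edgeR adjusted p = 9.81e-07). Serpinb2, plasminogen activator inhibitor 2, had 2.84, 0 and 2.21 CPM in the aKO libraries, against 13.9, 13.6 and 9.26 CPM in the Cont libraries (log2 fold change -2.34 ± 0.25 SE, edgeR adjusted p = 1.79e-07). F13a1, the transglutaminase subunit of factor XIII that macrophages express, had 8.35, 11.9 and 8.59 CPM in the aKO libraries, against 40.0, 44.4 and 33.7 CPM in the Cont libraries (log2 fold change -2.20 ± 0.14 SE, edgeR adjusted p = 1.55e-11). These too were separated without overlap.

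Among abundant genes that passed, the call or the size of several rested on the shallow library. Malat1, a nuclear noncoding RNA, had 4774, 38140 and 3426 CPM in the aKO libraries, against 4016, 4586 and 3847 CPM in the Cont libraries (log2 fold change 1.89 ± 0.58 SE, edgeR adjusted p = 0.0365) and a log2 fold change of -0.02 without it (adjusted p = 0.945). Lars2, the mitochondrial leucyl-tRNA synthetase, had 2134, 15120 and 1945 CPM in the aKO libraries, against 1885, 2029 and 1600 CPM in the Cont libraries (log2 fold change 1.78 ± 0.51 SE, edgeR adjusted p = 0.0254) and 0.14 (adjusted p = 0.248) without it. Leaving out any 1 Cont library also ended both calls, at adjusted p = 0.0598 to 0.103 in edgeR. Fn1, fibronectin, had 10870, 25700 and 11750 CPM in the aKO libraries, against 9713, 9830 and 9632 CPM in the Cont libraries (log2 fold change 0.73 ± 0.19 SE, edgeR adjusted p = 0.00808) and 0.21 (adjusted p = 0.0176) without it. The log2 fold changes of Aebp1, Ahnak, Svep1 and Col6a3 were 0.64, 0.53, 0.62 and 0.78 over 6 libraries and 0.39, 0.24, 0.33 and 0.49 without the shallow one, and passed both ways. Gas6, a ligand of the TAM receptor kinases that take part in the clearance of dead cells, did not depend on it, with 2794, 3402 and 2992 CPM in the aKO libraries, against 1203, 1115 and 1304 CPM in the Cont libraries (log2 fold change 1.34 ± 0.094 SE, edgeR adjusted p = 7.15e-11; 1.25 without it).

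Proteins of tendon and cartilage matrix rose more often than they fell. Of 36 tested members 13 rose and 3 fell (median 0.34), and 6 fell without the shallow library. The small leucine-rich proteoglycans Prelp and Fmod, which bind collagen fibrils, were among those that rose. Prelp had 391, 378 and 431 CPM in the aKO libraries, against 164, 168 and 132 CPM in the Cont libraries (log2 fold change 1.38 ± 0.11 SE, edgeR adjusted p = 3.36e-10). Fmod, fibromodulin, had 156, 96.9 and 165 CPM in the aKO libraries, against 61.4, 46.5 and 45.2 CPM in the Cont libraries (log2 fold change 1.58 ± 0.15 SE, edgeR adjusted p = 2.12e-07). Alpl, the phosphatase of mineralizing tissue, had 24.9, 15.8 and 31.3 CPM in the aKO libraries, against 11.0, 9.90 and 9.62 CPM in the Cont libraries (log2 fold change 1.42 ± 0.15 SE, edgeR adjusted p = 6.73e-08). Matn2, a matrilin, had 64.4, 63.3 and 71.7 CPM in the aKO libraries, against 36.4, 40.3 and 32.8 CPM in the Cont libraries (log2 fold change 0.89 ± 0.10 SE, edgeR adjusted p = 3.67e-07). The aKO libraries were the higher ones in all 4, with no overlap. Spp1, osteopontin, which macrophages also make, went the other way, with 335, 142 and 317 CPM in the aKO libraries, against 1172, 1072 and 909.9 CPM in the Cont libraries (log2 fold change -1.87 ± 0.17 SE, edgeR adjusted p = 8.31e-08). Its aKO libraries all lay below the Cont libraries; leukocyte markers were lower in the same libraries, and their part in this difference was not tested.

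Of 31 tested collagen genes 7 rose and 2 fell, and 6 rose and 2 fell without the shallow library; the median was 0.21 with and -0.03 without it. The 3 main chains of collagen VI, the beaded filament collagen around fat cells, rose together. Col6a1 had 2098, 2346 and 2087 CPM in the aKO libraries, against 1390, 1362 and 1154 CPM in the Cont libraries (log2 fold change 0.74 ± 0.12 SE, edgeR adjusted p = 4.84e-05). Col6a2 had 1967, 2385 and 1836 CPM in the aKO libraries, against 1292, 1238 and 1077 CPM in the Cont libraries (log2 fold change 0.77 ± 0.13 SE, edgeR adjusted p = 7.84e-05). Col6a3 had 2339, 3671 and 2058 CPM in the aKO libraries, against 1730, 1526 and 1406 CPM in the Cont libraries (log2 fold change 0.78 ± 0.16 SE, edgeR adjusted p = 0.00103). No aKO value lay within the Cont range in any of the 3, and Col6a3 had a log2 fold change of 0.49 without the shallow library. The fibrillar chain Col1a1 had 15680, 39220 and 15000 CPM in the aKO libraries, against 17440, 16670 and 16430 CPM in the Cont libraries and did not pass (log2 fold change 0.47 ± 0.22 SE, edgeR adjusted p = 0.171); the shallow library alone lay above the Cont libraries. Col8a2, a short-chain collagen, had 20.99, 11.9 and 21.1 CPM in the aKO libraries, against 7.40, 5.54 and 4.57 CPM in the Cont libraries (log2 fold change 1.79 ± 0.18 SE, edgeR adjusted p = 6.7e-08). Col18a1, a basement membrane collagen, had 136, 222 and 131 CPM in the aKO libraries, against 75.6, 69.8 and 58.6 CPM in the Cont libraries (log2 fold change 1.07 ± 0.21 SE, edgeR adjusted p = 0.00135). Of 41 tested proteases, inhibitors and cross-linking enzymes of the matrix 8 rose and 11 fell; the higher count was 5 without aKO replicate 3, 5 without Cont replicate 1, 5 without Cont replicate 2 and 4 without Cont replicate 3. Timp2, an inhibitor of matrix metalloproteinases, had 1216, 1165 and 1266 CPM in the aKO libraries, against 799, 811 and 828 CPM in the Cont libraries (log2 fold change 0.58 ± 0.075 SE, edgeR adjusted p = 2.83e-06). Adamts5, an aggrecanase, had 432, 459 and 418 CPM in the aKO libraries, against 613, 769 and 764 CPM in the Cont libraries (log2 fold change -0.72 ± 0.11 SE, edgeR adjusted p = 2.09e-05). Loxl2 and Loxl3, which cross-link collagen and elastin, fell by 0.45 and 0.69 on the log2 scale. None of these 4 overlapped between the groups.

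In the Wnt pathway 13 of 43 tested genes rose and 6 fell. Among ligands, Wnt16 had 80.3, 94.9 and 89.7 CPM in the aKO libraries, against 41.1, 35.9 and 37.0 CPM in the Cont libraries (log2 fold change 1.17 ± 0.091 SE, edgeR adjusted p = 3.69e-10). Wnt4 had 9.12, 13.8 and 12.2 CPM in the aKO libraries, against 23.6, 28.3 and 19.7 CPM in the Cont libraries (log2 fold change -1.15 ± 0.15 SE, edgeR adjusted p = 3.76e-06). The ligands thus moved apart, each without overlap. The receptor Fzd4 had 157, 146 and 151 CPM in the aKO libraries, against 78.9, 83.0 and 78.7 CPM in the Cont libraries (log2 fold change 0.93 ± 0.11 SE, edgeR adjusted p = 9.81e-07). Among secreted inhibitors, Sfrp2 had 867, 635 and 897 CPM in the aKO libraries, against 310.3, 307 and 278 CPM in the Cont libraries (log2 fold change 1.45 ± 0.15 SE, edgeR adjusted p = 3.29e-07). Dkk3, a Dickkopf relative, had 142, 109 and 147 CPM in the aKO libraries, against 85.0, 79.0 and 95.5 CPM in the Cont libraries (log2 fold change 0.70 ± 0.081 SE, edgeR adjusted p = 5.08e-07). Frzb had 1.81, 0 and 1.98 CPM in the aKO libraries, against 5.02, 5.74 and 5.05 CPM in the Cont libraries (log2 fold change -1.50 ± 0.21 SE, edgeR adjusted p = 8.14e-06). Sfrp2 and Dkk3 were higher and Frzb lower in every aKO library. Sfrp1, a close relative of Sfrp2, had 2425, 2189 and 2618 CPM in the aKO libraries, against 2083, 2224 and 2234 CPM in the Cont libraries and did not pass (log2 fold change 0.15 ± 0.094 SE, edgeR adjusted p = 0.329).

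In the TGF-β, BMP and activin list 13 of 52 tested genes rose and 11 fell. Inhba, the subunit of activin A, had 84.2, 75.2 and 82.2 CPM in the aKO libraries, against 182, 174 and 171 CPM in the Cont libraries (log2 fold change -1.09 ± 0.13 SE, edgeR adjusted p = 2.11e-06). Fstl3, a binding protein that blocks activin, had 32.3, 17.8 and 32.4 CPM in the aKO libraries, against 53.3, 52.7 and 57.4 CPM in the Cont libraries (log2 fold change -0.78 ± 0.089 SE, edgeR adjusted p = 4.56e-07). Ligand and inhibitor both fell, without overlap. Gdf6, a BMP ligand, had 1.119, 1.98 and 0.837 CPM in the aKO libraries, against 3.21, 4.06 and 3.37 CPM in the Cont libraries (log2 fold change -1.82 ± 0.30 SE, edgeR adjusted p = 7.16e-05). Smad6, a feedback inhibitor of BMP signalling, had 28.7, 19.8 and 35.7 CPM in the aKO libraries, against 19.0, 17.8 and 19.4 CPM in the Cont libraries (log2 fold change 0.76 ± 0.12 SE, edgeR adjusted p = 3.83e-05). Id4, a BMP-responsive inhibitor of helix-loop-helix factors, had 21.1, 9.89 and 23.1 CPM in the aKO libraries, against 12.2, 10.00 and 12.4 CPM in the Cont libraries (log2 fold change 0.90 ± 0.12 SE, edgeR adjusted p = 7.46e-06), its shallow library lying below the Cont libraries. The relatives Id1, Id2 and Id3, chosen after their values were seen, rose by 0.69, 0.62 and 0.66 on the log2 scale in edgeR, so that all 4 genes of the family passed the test.

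Among ligands and receptors of the IGF, EGF, FGF, PDGF and neurotrophin families 12 of 54 tested genes rose and 12 fell. Fgfr2, a receptor of FGFs, had 24.5, 21.8 and 30.4 CPM in the aKO libraries, against 9.95, 7.23 and 7.82 CPM in the Cont libraries (log2 fold change 1.69 ± 0.13 SE, edgeR adjusted p = 2.22e-10), while its ligand Fgf2 had 101, 101 and 115 CPM in the aKO libraries, against 186, 184 and 200.3 CPM in the Cont libraries (log2 fold change -0.82 ± 0.13 SE, edgeR adjusted p = 4.75e-05). Igfbp3 and Igfbp5 bind IGFs in the matrix and serum. Igfbp3 had 151, 134 and 159.9 CPM in the aKO libraries, against 419.8, 463 and 405 CPM in the Cont libraries (log2 fold change -1.50 ± 0.20 SE, edgeR adjusted p = 3e-05). Igfbp5 had 216, 198 and 200.2 CPM in the aKO libraries, against 109, 84.5 and 95.6 CPM in the Cont libraries (log2 fold change 1.10 ± 0.16 SE, edgeR adjusted p = 3.3e-05). Receptor and ligand, and the 2 binding proteins, moved in opposite directions, and no group overlapped. Errfi1, a feedback inhibitor of the EGF receptor, had 132, 115 and 155 CPM in the aKO libraries, against 217, 224 and 224 CPM in the Cont libraries (log2 fold change -0.67 ± 0.08 SE, edgeR adjusted p = 9.81e-07). Of 33 tested feedback and immediate early genes of MAP kinase signalling none rose and 8 fell (median -0.21); 5 fell without aKO replicate 3 and 4 in the fit to the 6 libraries alone. Dusp6, a phosphatase of ERK that ERK signalling induces, had 9.72, 1.98 and 11.1 CPM in the aKO libraries, against 26.3, 25.8 and 23.0 CPM in the Cont libraries (log2 fold change -1.30 ± 0.13 SE, edgeR adjusted p = 6.65e-08). Spred2, an inhibitor of the same pathway, had 42.9, 45.5 and 42.4 CPM in the aKO libraries, against 55.7, 55.9 and 57.1 CPM in the Cont libraries (log2 fold change -0.39 ± 0.077 SE, edgeR adjusted p = 0.000575). Spry2, a further inhibitor, had 17.5, 25.7 and 17.1 CPM in the aKO libraries, against 27.1, 26.7 and 24.7 CPM in the Cont libraries (log2 fold change -0.58 ± 0.095 SE, edgeR adjusted p = 8.27e-05); the shallow library lay among its Cont values, and Dusp6 and Spred2 did not overlap.

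Of 26 tested genes of retinoic acid synthesis, binding and receptors 6 rose and 9 fell. Aldh1a1, which makes retinoic acid from retinal, had 107, 77.1 and 108 CPM in the aKO libraries, against 45.1, 54.0 and 52.2 CPM in the Cont libraries (log2 fold change 1.06 ± 0.11 SE, edgeR adjusted p = 1.53e-07). Dhrs3, which turns retinal back to retinol, had 63.6, 59.3 and 63.1 CPM in the aKO libraries, against 103, 110.0 and 113 CPM in the Cont libraries (log2 fold change -0.78 ± 0.081 SE, edgeR adjusted p = 8.41e-08). The synthesis enzyme was higher and the opposing enzyme lower in every aKO library. Crabp2, a carrier of retinoic acid, had a log2 fold change of -1.11 (edgeR adjusted p = 7.67e-05). Rarb, a retinoic acid receptor that retinoic acid itself induces, had 0.774, 1.98 and 0.456 CPM in the aKO libraries, against 3.70, 3.07 and 3.73 CPM in the Cont libraries (log2 fold change -2.44 ± 0.39 SE, edgeR adjusted p = 5.09e-05), again without overlap.

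Guidance molecules, first known from growing axons, rose in 17 and fell in 7 of 51 tested genes (median 0.20). The higher count was 11 without aKO replicate 3, and the lower was 4 without aKO replicate 1, 11 without aKO replicate 2 and 4 without aKO replicate 3. Sema7a, a membrane-anchored semaphorin, had 9.72, 13.8 and 9.43 CPM in the aKO libraries, against 29.7, 27.7 and 22.6 CPM in the Cont libraries (log2 fold change -1.47 ± 0.16 SE, edgeR adjusted p = 4.57e-07). Epha3, an ephrin receptor, had 17.5, 9.89 and 16.5 CPM in the aKO libraries, against 8.39, 8.41 and 8.30 CPM in the Cont libraries (log2 fold change 0.995 ± 0.12 SE, edgeR adjusted p = 8.13e-07). Plxna2, a semaphorin receptor, had 45.7, 69.2 and 51.0 CPM in the aKO libraries, against 29.8, 28.9 and 29.8 CPM in the Cont libraries (log2 fold change 0.75 ± 0.09 SE, edgeR adjusted p = 9.45e-07). Slit2, a ligand of Robo receptors, had 212, 277 and 240.1 CPM in the aKO libraries, against 178, 158 and 175 CPM in the Cont libraries (log2 fold change 0.47 ± 0.084 SE, edgeR adjusted p = 0.000216). The semaphorin was lower, and the receptors and Slit2 higher, in every aKO library. Of 33 tested receptors for neurotransmitters and neuropeptides and granins 5 rose and 8 fell; the higher count was 3 without aKO replicate 1, 3 without aKO replicate 3 and 3 without Cont replicate 1. Adra2a, the α2A adrenergic receptor that restrains lipolysis, had 3.79, 3.96 and 5.40 CPM in the aKO libraries, against 12.4, 10.5 and 14.2 CPM in the Cont libraries (log2 fold change -1.41 ± 0.21 SE, edgeR adjusted p = 2.62e-05). Adcyap1r1, the receptor of the peptide PACAP, had 18.2, 23.7 and 16.7 CPM in the aKO libraries, against 90.1, 95.4 and 121 CPM in the Cont libraries (log2 fold change -2.53 ± 0.18 SE, edgeR adjusted p = 5.32e-09). Both were lower without overlap.

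Of 17 tested genes known as higher in subcutaneous fat 8 rose and 1 fell (median 0.30), and of 10 known as higher in visceral fat none rose and 5 fell (median -0.85). The subcutaneous list was led by Sfrp2, given above, and by Iroquois homeobox genes: Irx5 had 11.96, 15.8 and 14.98 CPM in the aKO libraries, against 8.22, 5.84 and 6.38 CPM in the Cont libraries (log2 fold change 0.98 ± 0.13 SE, edgeR adjusted p = 5.13e-06). Irx1 had 34.4, 49.4 and 39.4 CPM in the aKO libraries, against 25.9, 19.8 and 24.8 CPM in the Cont libraries (log2 fold change 0.68 ± 0.11 SE, edgeR adjusted p = 5.5e-05). Irx2 and Irx3 rose by 0.56 and 0.97 on the log2 scale. All 4 were higher in every aKO library. Shox2, the member that fell, had 48.9, 47.5 and 47.8 CPM in the aKO libraries, against 66.8, 65.2 and 75.3 CPM in the Cont libraries (log2 fold change -0.51 ± 0.07 SE, edgeR adjusted p = 6.18e-06). Of the visceral genes beside Wt1, Tcf21, a factor of visceral mesenchyme, had 0.602, 0 and 0.608 CPM in the aKO libraries, against 4.03, 4.26 and 3.49 CPM in the Cont libraries (log2 fold change -2.72 ± 0.32 SE, edgeR adjusted p = 6.36e-07). Thbd, thrombomodulin, had 10.9, 7.91 and 12.2 CPM in the aKO libraries, against 39.1, 36.7 and 41.9 CPM in the Cont libraries (log2 fold change -1.77 ± 0.14 SE, edgeR adjusted p = 3.16e-10). Both were lower without overlap. Of 9 tested markers of mesothelial cells, which share Wt1 and Upk3b with the visceral list, Wt1, Krt7 and Krt19 fell and Efemp1 rose (median -0.96). The keratin gene Krt19 had 5.08, 1.98 and 3.88 CPM in the aKO libraries, against 9.05, 10.2 and 9.74 CPM in the Cont libraries (log2 fold change -1.13 ± 0.18 SE, edgeR adjusted p = 6.14e-05). The 14 genes of that list summed to 365.7, 236.8 and 391.9 CPM in the aKO libraries, against 225.4, 261.8 and 245.9 CPM in the Cont libraries. Without Efemp1, a fibulin of the matrix, they summed to 21.42, 17.8 and 22.81 CPM in the aKO libraries, against 41.21, 40.09 and 42.09 CPM in the Cont libraries. Msln, the defining marker mesothelin, had 1, 0 and 0 counts in the aKO libraries, against 4, 0 and 0 counts in the Cont libraries. The part of mesothelial cells in the fall of the visceral genes was not tested. Among 30 tested Hox genes 5 rose and 2 fell; the higher count was 2 without aKO replicate 1, 2 without aKO replicate 3, 1 without Cont replicate 1, 2 without Cont replicate 2 and 3 without Cont replicate 3, and the lower was 4 without Cont replicate 3. Hoxc13 had 7.05, 5.93 and 7.61 CPM in the aKO libraries, against 2.96, 2.28 and 3.37 CPM in the Cont libraries (log2 fold change 1.35 ± 0.17 SE, edgeR adjusted p = 2.02e-06). Hoxd8 had 8.43, 9.89 and 11.3 CPM in the aKO libraries, against 18.8, 17.4 and 19.4 CPM in the Cont libraries (log2 fold change -0.90 ± 0.14 SE, edgeR adjusted p = 5.27e-05). Hoxc13 was higher and Hoxd8 lower in every aKO library. The Cont libraries labelled inguinal and epididymal overlapped in Wt1 and Tbx15, as shown above, so these lists are given by genotype alone.

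Adipoq and Senp2 both lie on chromosome 16, and of 16 tested genes around Adipoq 4 rose and 3 fell; the higher count was 2 without aKO replicate 1, 2 without Cont replicate 1 and 2 without Cont replicate 2, and the lower was 1 without aKO replicate 3 and 1 without Cont replicate 1. Eif4a2, a translation helicase gene next to Adipoq, had 208, 209.6 and 239 CPM in the aKO libraries, against 146, 139.6 and 134 CPM in the Cont libraries (log2 fold change 0.66 ± 0.088 SE, edgeR adjusted p = 5.3e-06). Igf2bp2, an mRNA-binding protein gene, had 36.5, 25.7 and 36.9 CPM in the aKO libraries, against 49.4, 56.2 and 54.6 CPM in the Cont libraries (log2 fold change -0.56 ± 0.09 SE, edgeR adjusted p = 6.14e-05). Neither overlapped between the groups. Whether the transgene or DNA linked to the floxed allele has a part in these differences was not tested.

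Genes of amino acid supply under ATF4 were mostly lower where they changed: of 40 tested members 2 rose and 14 fell (median -0.19); the lower count was 9 without Cont replicate 1 and 9 without Cont replicate 2. Mthfd1l, an enzyme of mitochondrial folate metabolism, had 37.5, 29.7 and 34.8 CPM in the aKO libraries, against 58.6, 56.2 and 46.9 CPM in the Cont libraries (log2 fold change -0.60 ± 0.099 SE, edgeR adjusted p = 9.01e-05). Psat1, of serine synthesis, had 128, 69.2 and 125 CPM in the aKO libraries, against 154, 153 and 156 CPM in the Cont libraries (log2 fold change -0.37 ± 0.091 SE, edgeR adjusted p = 0.00581). Slc1a5, a glutamine transporter, rose, with 279, 324 and 313 CPM in the aKO libraries, against 199, 228 and 202 CPM in the Cont libraries (log2 fold change 0.53 ± 0.092 SE, edgeR adjusted p = 0.000163). No overlap was seen in the 3. Of 22 genes of the unfolded protein response 8 fell and none rose (median -0.24), and 12 fell without the shallow library; the count was 5 without aKO replicate 1 and 3 without Cont replicate 3. None passed in the fit to the 6 libraries alone or where the fold change had to exceed 1.2. Hspa5, the chaperone BiP, had 1033, 746 and 1081 CPM in the aKO libraries, against 1261, 1212 and 1276 CPM in the Cont libraries (log2 fold change -0.37 ± 0.096 SE, edgeR adjusted p = 0.00745). Sdf2l1, another chaperone of the endoplasmic reticulum, had 24.4, 7.91 and 27.4 CPM in the aKO libraries, against 37.0, 32.9 and 34.2 CPM in the Cont libraries (log2 fold change -0.46 ± 0.11 SE, edgeR adjusted p = 0.00381). Both were lower in every aKO library. Hsp90b1, the chaperone GRP94, had 448, 886 and 468 CPM in the aKO libraries, against 696, 687 and 811 CPM in the Cont libraries; it did not pass (log2 fold change -0.36 ± 0.16 SE, edgeR adjusted p = 0.162) and fell by 0.68 on the log2 scale without the shallow library (adjusted p = 1.91e-05). In the NRF2 and glutathione list 7 of 37 tested genes rose and 1 fell, and 13 rose and 2 fell without the shallow library; without aKO replicate 3 the counts were 4 and 2. Gclc, the rate-limiting enzyme of glutathione synthesis, had 45.7, 61.3 and 47.0 CPM in the aKO libraries, against 31.0, 29.1 and 36.0 CPM in the Cont libraries (log2 fold change 0.57 ± 0.096 SE, edgeR adjusted p = 0.000115). The glutathione transferases Gsta4 and Gstt1 rose by 1.86 and 1.196 on the log2 scale, with the shallow library inside or below the Cont range.

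Markers of leukocytes were lower, and genes of inflammation moved both ways. Of 22 tested leukocyte markers 12 fell and none rose (median -0.74), and 7 fell without aKO replicate 3. C1qa, a chain of complement C1q that macrophages make, had 74.2, 31.6 and 64.1 CPM in the aKO libraries, against 202, 192 and 149 CPM in the Cont libraries (log2 fold change -1.45 ± 0.27 SE, edgeR adjusted p = 0.00129). Fcgr1, a high-affinity Fc receptor, had 3.53, 0 and 3.80 CPM in the aKO libraries, against 14.5, 11.5 and 9.50 CPM in the Cont libraries (log2 fold change -1.74 ± 0.27 SE, edgeR adjusted p = 4.96e-05). The aKO libraries were the lower ones in both, without overlap. Csf1r, the receptor that macrophages need, had 129.6, 109 and 107 CPM in the aKO libraries, against 189.6, 168 and 115 CPM in the Cont libraries and did not pass (log2 fold change -0.43 ± 0.21 SE, edgeR adjusted p = 0.186). Of 46 tested genes of inflammation 7 rose and 12 fell. Saa3, a serum amyloid A of fat and macrophages, had 23.2, 17.8 and 28.1 CPM in the aKO libraries, against 76.8, 82.8 and 82.9 CPM in the Cont libraries (log2 fold change -1.67 ± 0.24 SE, edgeR adjusted p = 6.42e-05). The prostaglandin enzymes Ptgs1 (cyclooxygenase 1) and Ptgis (prostacyclin synthase) fell: Ptgs1 had 9.81, 7.91 and 10.2 CPM in the aKO libraries, against 25.2, 24.4 and 26.9 CPM in the Cont libraries (log2 fold change -1.36 ± 0.16 SE, edgeR adjusted p = 1.35e-06), and Ptgis fell by 0.68 on the log2 scale. Il1rn, the antagonist of the interleukin 1 receptor, had 211, 101 and 226 CPM in the aKO libraries, against 107, 92.8 and 101 CPM in the Cont libraries (log2 fold change 1.01 ± 0.12 SE, edgeR adjusted p = 2.12e-06). Cxcl13 had 3.27, 1.98 and 2.81 CPM in the aKO libraries, against 0.329, 0.297 and 0.842 CPM in the Cont libraries (log2 fold change 2.68 ± 0.38 SE, edgeR adjusted p = 9.65e-06). Saa3, Ptgs1 and Cxcl13 did not overlap, while for Il1rn the shallow library lay inside the Cont range. The shallow value of Cxcl13 is 1 count. Leukocyte markers summed to 1166 to 2082 CPM in the aKO libraries, against 2516 to 3457 CPM in the Cont libraries, and their part in the inflammation and complement values was not tested.

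Of 37 tested genes of complement and coagulation 5 rose and 12 fell (median -0.27). C4b, a complement component, had 737, 1206 and 787 CPM in the aKO libraries, against 469.8, 472 and 408 CPM in the Cont libraries (log2 fold change 0.98 ± 0.16 SE, edgeR adjusted p = 0.000172). C1ra, a protease of complement C1, had 99.9, 107 and 115 CPM in the aKO libraries, against 69.2, 55.8 and 64.8 CPM in the Cont libraries (log2 fold change 0.76 ± 0.11 SE, edgeR adjusted p = 1.24e-05). C7, of the membrane attack complex, had 6.97, 11.9 and 8.75 CPM in the aKO libraries, against 21.1, 24.8 and 18.4 CPM in the Cont libraries (log2 fold change -1.42 ± 0.16 SE, edgeR adjusted p = 4.2e-07). C4b and C1ra were higher, and C7 lower, in every aKO library.

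Of 14 endothelial markers 6 fell and 1 rose, and of 23 markers of smooth muscle and contractile cells 10 fell and 2 rose; without aKO replicate 3 the lower count of the muscle list was 6. Pecam1, of endothelial junctions, had 1.21, 1.98 and 1.45 CPM in the aKO libraries, against 3.70, 3.86 and 3.61 CPM in the Cont libraries (log2 fold change -1.46 ± 0.31 SE, edgeR adjusted p = 0.00115). Tek, an angiopoietin receptor, had 10.2, 15.8 and 12.2 CPM in the aKO libraries, against 4.77, 4.16 and 5.77 CPM in the Cont libraries (log2 fold change 1.24 ± 0.14 SE, edgeR adjusted p = 4.65e-07). They moved apart without overlap. Mylk, the myosin light chain kinase, had 80.4, 43.5 and 71.9 CPM in the aKO libraries, against 115, 113 and 121 CPM in the Cont libraries (log2 fold change -0.67 ± 0.12 SE, edgeR adjusted p = 0.000217). Acta2, smooth muscle actin, had 882, 398 and 782 CPM in the aKO libraries, against 960.3, 876 and 1152 CPM in the Cont libraries and did not pass (log2 fold change -0.49 ± 0.17 SE, edgeR adjusted p = 0.0528). Among 34 progenitor and fibroblast markers 7 rose and 6 fell, and 11 rose without the shallow library. Pdgfra, a receptor of adipocyte progenitors, had 808, 899.9 and 766 CPM in the aKO libraries, against 581, 575 and 599 CPM in the Cont libraries (log2 fold change 0.49 ± 0.092 SE, edgeR adjusted p = 0.000418). Dpp4, of early progenitors, had 0.516, 0 and 0.684 CPM in the aKO libraries, against 2.14, 2.28 and 3.85 CPM in the Cont libraries (log2 fold change -2.16 ± 0.46 SE, edgeR adjusted p = 0.00138). Pdgfra was higher and Dpp4 lower in every aKO library. Of 36 interferon response genes 2 rose and none fell. Ifit3, an interferon-induced protein, had 48.0, 13.8 and 57.7 CPM in the aKO libraries, against 31.5, 24.9 and 29.2 CPM in the Cont libraries (log2 fold change 0.82 ± 0.21 SE, edgeR adjusted p = 0.0113). Tap1, a peptide transporter of antigen presentation, had 53.2, 79.1 and 52.2 CPM in the aKO libraries, against 46.5, 39.8 and 42.9 CPM in the Cont libraries (log2 fold change 0.33 ± 0.098 SE, edgeR adjusted p = 0.0211). For Tap1 the edgeR adjusted p was 0.101 without Cont replicate 2, 0.0551 without Cont replicate 3, 0.0562 without aKO replicate 1 and 0.0505 without aKO replicate 3, and for Ifit3 the edgeR adjusted p was 0.148 without aKO replicate 3.

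The effect of the knockout with siNS was set against its effect with siCEBPb in the same depot. In a test of the difference between the 2 effects, 324 genes (2.19%) had a higher and 195 (1.32%) a lower effect with siNS (edgeR adjusted p of 0.05). In all 519 passed. The count was 938 without the shallow library, 310 without aKO siNS replicate 3, 289 without aKO siCEBPb replicate 1, 325 without Cont siCEBPb replicate 1 and 342 without Cont siNS replicate 1. The 2 comparisons share no library. Ndnf, a secreted neurotrophic factor, had a difference in direction. With siNS it had 16.5, 11.9 and 15.8 CPM in the aKO libraries, against 9.29, 8.12 and 7.10 CPM in the Cont libraries; with siCEBPb it had 2.30, 2.40 and 3.37 CPM in the aKO libraries, against 8.56, 8.62 and 9.40 CPM in the Cont libraries. Its log2 fold change was 0.95 ± 0.12 with siNS and -1.73 ± 0.14 with siCEBPb, a difference of 2.68 ± 0.19 (edgeR adjusted p = 5.36e-10). Inhba, which fell with siNS, had 388, 259.9 and 262 CPM in the aKO libraries, against 217, 228 and 224 CPM in the Cont libraries with siCEBPb (difference -1.53 ± 0.18, edgeR adjusted p = 1.64e-05). Sema7a, which also fell with siNS, had 39.2, 32.7 and 34.5 CPM in the aKO libraries, against 22.6, 30.8 and 24.7 CPM in the Cont libraries with siCEBPb (difference -1.91 ± 0.20, edgeR adjusted p = 3.38e-06). In both genes the aKO libraries were lower than the Cont libraries with siNS and higher with siCEBPb, without overlap. Fgfr2 and Aldh1a1, which rose with siNS, had log2 fold changes of 0.28 and -0.19 with siCEBPb and did not pass there; the differences were 1.41 ± 0.17 and 1.25 ± 0.15, both at an edgeR adjusted p of 2.3e-05. Wt1 had a log2 fold change of -3.29 with siNS and -3.18 with siCEBPb, and the difference did not pass (edgeR adjusted p = 0.913). Ppargc1a had 2.65 ± 0.34 with siNS and 0.56 ± 0.37 with siCEBPb, and the difference passed (edgeR adjusted p = 0.0244).

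**Figure D5:**
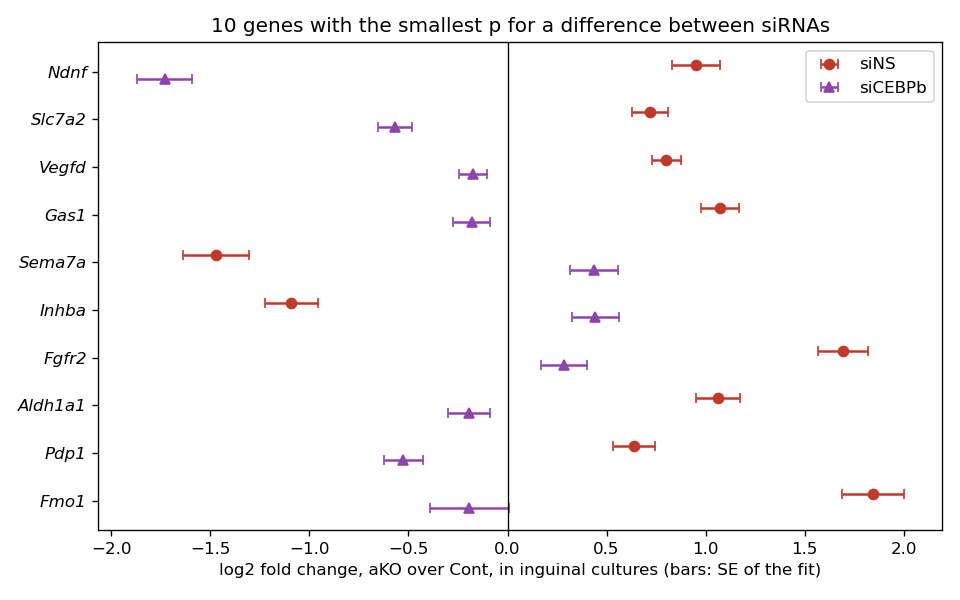
Log2 fold change of aKO over Cont inguinal libraries, with standard error bars, with siNS and with siCEBPb, for the 10 genes with the smallest p for the difference between these effects. Of the 10, Ndnf has the largest difference, 2.68, and Sema7a and Inhba have negative effects with siNS (-1.47 and -1.09) and positive ones with siCEBPb (0.44 each).

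By list, of 40 mitosis genes 39 fell with siNS and 7 with siCEBPb, and for 5 the difference between the effects passed. Of the 21 cholesterol synthesis genes 13 rose with siNS and 12 with siCEBPb, and of the 25 glycolysis genes 17 fell with siNS and 8 with siCEBPb. Of the 33 MAP kinase genes none rose and 8 fell with siNS, 7 rose and 2 fell with siCEBPb, and for 9 the effect was lower with siNS by the test of the difference. Of 22 leukocyte markers 12 fell with siNS and 19 with siCEBPb, and of 37 complement and coagulation genes 12 fell with siNS and 19 with siCEBPb. Over all tested genes 7.32% rose and 7.85% fell with siNS, and 3.52% rose and 6.51% fell with siCEBPb. By the test of the difference the effect was lower with siNS for 1.32% of all genes. Apart from the tests of the difference given, these counts stand side by side and do not show that the effects differ.

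Set against the epididymal siNS libraries, no gene passed a test of the difference between the 2 effects of the knockout (0 of 14785 in edgeR, 0%), while 415 had an unadjusted p under 0.05 and 18 passed where no filter on low counts was used. The count was also 0 without the shallow library, with each other library of the 4 groups left out in turn, and with libraries of the same replicate number compared across the depots. A count of 0 does not show that the depots respond alike. The epididymal effects share no library with the inguinal ones. However, Cont siNS libraries of the same number deviated together across the depots (r = 0.27, 0.425 and 0.312). The labels name no shared source, and the 2 comparisons may not be independent. In the epididymal libraries 39 of 40 mitosis genes, 14 of 25 glycolysis genes and 21 of 32 hypoxia genes fell, and 19 of 21 cholesterol synthesis genes rose. Over all tested genes 10.9% fell and 9.5% rose in the epididymal siNS libraries. Wt1 had 1.62, 1.76 and 1.43 CPM in the epididymal aKO libraries, against 14.3, 15.1 and 15.9 CPM in the epididymal Cont libraries, a log2 fold change of -3.23. Gas6, Fgfr2 and Sfrp2 had inguinal log2 fold changes of 1.34, 1.69 and 1.45, against epididymal ones of 1.204, 1.46 and 1.40. Of 76 nuclear respiratory chain genes none rose over all 6 inguinal libraries and 9 without the shallow one, where 9.05% of all genes rose, and 18 rose in the epididymal libraries, where 9.5% of all genes rose; the difference between these counts was not tested.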

How the data were processed

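The measurements are whole-number counts of reads per gene in 24 libraries of polyadenylated RNA, deposited by the authors without normalization. Per the submitters' processing notes, CASAVA, cutadapt 2.7, TopHat2 2.1.1, HTSeq, edgeR and the build GRCm38 were used; they do not state whether counting used strand, so reads of overlapping antisense genes cannot be told apart. Lines of unassigned reads were left out of totals and tests. Of 53465 gene identifiers 53360 were named from GENCODE M21.

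From these counts, 14785 genes that passed edgeR's filter (minimum count 10) were fitted with edgeR 4.0.16 in R 4.3.3: TMM scaling, robust quasi-likelihood test, 1 mean per group over all 24 libraries, which share 1 estimate of spread per gene, and Benjamini-Hochberg adjustment at 0.05. CPM are counts per 1000000 of the library total after scaling by its TMM factor. The script was tested on simulated counts. Alternatives used DESeq2 1.42.0, limma 3.58.1, other filters, a replicate block, the 6 libraries alone, a fold threshold of 1.2 and each library left out in turn. Differences between siRNAs and between depots were tested as interaction terms in the same fit.

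The genes and lists were chosen with earlier results of these data known. Named genes are a fixed set, the 15 largest rises and falls whose groups did not overlap and whose mean log2 CPM reached 1, the 10 most abundant genes past the threshold, up to 6 members per list with the smallest p and up to 3 abundant members that did not pass, and the 10 smallest p of each difference test; a part of them is described. Promoter sequences are RefSeq's, of GRCm38.p6, matched by gene symbol, for 10730 of the tested genes. Whether replicate numbers pair the aKO with the Cont libraries could not be decided from the counts. Between the depots the Cont siNS libraries of the same number deviated together (r = 0.27, 0.425 and 0.312 over 8159 genes), while the aKO siNS libraries had r = 0.256, -0.174 and 0.251, the negative one with the shallow library; the labels name no shared source. The comparison of the depots' Cont libraries within replicate numbers and without the shallow library was chosen after seeing the data.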

Additional observations from a re-analysis of the deposited data

Results flagged for a closer look

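In a test of the difference between the effect of the knockout with siNS and with siCEBPb, 519 genes passed an edgeR adjusted p of 0.05, and the 10 with the smallest p are given here as the effect with siNS minus the effect with siCEBPb on the log2 scale. The effect was higher with siNS for Ndnf by 2.68, Fmo1, a flavin monooxygenase, by 2.04, Fgfr2 by 1.41, Slc7a2, a carrier of cationic amino acids, by 1.29, Aldh1a1 by 1.25, Gas1, a growth arrest protein, by 1.25, Pdp1, a phosphatase that activates pyruvate dehydrogenase, by 1.16 and Vegfd, a ligand of lymphatic growth, by 0.98. It was lower with siNS for Sema7a, with a difference of -1.91, and for Inhba, with a difference of -1.53.

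With siNS, Fmo1 had 39.5, 19.8 and 44.8 CPM in the aKO libraries, against 9.87, 12.97 and 11.4 CPM in the Cont libraries. With siCEBPb, Fmo1 had 4.06, 6.27 and 6.74 CPM in the aKO libraries, against 7.04, 6.39 and 6.10 CPM in the Cont libraries. The aKO libraries were higher with siNS, and the groups overlapped with siCEBPb. With siNS, Slc7a2 had 91.9, 73.2 and 101 CPM in the aKO libraries, against 58.3, 61.4 and 52.3 CPM in the Cont libraries. With siCEBPb, Slc7a2 had 39.5, 43.3 and 43.6 CPM in the aKO libraries, against 61.4, 66.9 and 59.0 CPM in the Cont libraries. The groups lay apart in opposite directions under the 2 siRNAs.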

How the results depend on the processing

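The 1082 higher and 1161 lower genes became 320 and 398 where only the 6 libraries were fitted, with 13481 genes tested, and 421 and 502 where the fold change had to exceed 1.2. Leaving out 1 library at a time gave 684 to 1338 higher and 755 to 1412 lower genes, the lowest without aKO replicate 3 and the highest without aKO replicate 2. The other scaling, filters, DESeq2 and limma voom kept both counts within 1.5 times. For the difference between siRNAs, 519 genes became 921 with no filter on low counts, 1235 with limma voom, 303 with the libraries of the comparison alone, and 289 to 938 with 1 library left out. The 1483 genes changed with siCEBPb became 2568 with limma voom and 945 to 1238 with 1 library left out. The difference between depots had 0 genes, and 18 with no filter on low counts.

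Of 261 named genes past the threshold, 67 lost their call with the fold threshold, 15 with the DESeq2 test, and 1 to 6 with the other scaling, filters, limma voom and the replicate block. In the fit to the 6 libraries alone 91 of 257 lost it. Leaving out 1 library lost 4 calls with the sign kept (aKO replicate 2) to 42 (aKO replicate 3), and 27 without Cont replicate 1. Malat1 also lost its call without aKO replicate 2, where it changed sign to -0.02494, and was at 2.367 without aKO replicate 3. Senp2 ranged from -0.1319 to 0.006616 and Cebpb from -0.1593 to 0.05694, with the positive values without Cont replicate 1, and neither passed in any of these fits. The cause was not tested.

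Whether the replicate numbers pair the aKO with the Cont libraries could not be decided from the counts. Deviations of aKO and Cont libraries of the same number correlated with r = 0.0939, 0.0466 and 0.048 over 8159 genes. The shallow library correlated better with Cont replicate 1 (r = 0.167) than with its own number. The other aKO libraries correlated best with their own number, but mirrored each other (r = 0.0939 and -0.0939 with Cont replicate 1). Their values are therefore not separate checks. With the replicate block 1122 genes were higher and 1194 lower, and 96.1% of the calls were shared.

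The shallow library limits what can be seen: 50.8% of the tested genes had fewer than 10 counts in it, and short transcripts were depleted.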
